A study of Mus musculus with 9 samples.

Results

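The genes described here are the 7 genes of the carnitine shuttle, Cpt1a, Cpt2, Slc25a20, Crat, Crot, Slc22a5 and Bbox1, taken by symbol from 54532 gene IDs counted in mouse liver. Each symbol matched 1 Ensembl ID in GENCODE M21, and all 7 were among the 14763 genes that passed the filter on low counts. RNA of 9 livers was sequenced, 3 in each of 3 groups of mice that the labels and design give as male, ApoE-/- and of the C57BL/6 background, controls included. Counts of 3 libraries go against these labels, as given below. The HFD + IgG1 group was fed a high-fat diet and then injected with recombinant human IgG1, the HFD + PBS group was fed the same diet and injected with PBS, and the normal diet group had neither the high-fat diet nor a stated injection. The high-fat diet held 41% of calories as fat and 43% as carbohydrate, was fed from week 4 of life for 20 weeks and gave way to chow for 1 week. Injections, 3 mg of IgG1 or PBS, were given into the peritoneum at 25, 26 and 27 weeks, and death was at 29 weeks. For the normal diet mice no age at death is stated, and for all mice no diet after week 25. In comparisons with normal diet, diet, age and injection cannot be told apart. The target of the IgG1 is not named, the characteristics of antibody replicates 6 and 7 read IgG2 and IgG3 while titles and design place them with replicate 5, and livers were picked for sequencing after fat staining and triglyceride measurement. The groups therefore hold selected livers.

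The carnitine shuttle carries fatty acids into mitochondria, whose inner membrane does not let acyl-CoA through. CPT1A on the outer membrane moves the acyl chain from CoA to carnitine, the carrier SLC25A20 exchanges acylcarnitine for carnitine across the inner membrane, and CPT2 on the matrix side makes acyl-CoA again for beta-oxidation. CROT and CRAT make acylcarnitines from medium-chain and short-chain acyl-CoA, many of them products of peroxisomal oxidation, SLC22A5 takes carnitine up from blood, and BBOX1 completes carnitine synthesis. In liver the CPT1 step is held back by malonyl-CoA, and several of these genes are known targets of the nuclear receptor PPAR-alpha.

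Libraries held 16215194 to 18538463 counts. Hepatocyte markers were abundant in every library, and of the 8 skeletal muscle markers 4 had no count anywhere. In 3 libraries, counts went against the labels. Apoe had 235888 counts in HFD + IgG1 replicate 5 and 225 to 1655 in the other 8. Xist, expressed from the inactive X chromosome of females, had 10970 to 17065 counts in HFD + PBS replicate 6 and normal diet replicate 5 and 0 to 4 in the other 7, and 4 Y-linked genes summed to 0 counts in that pair and to 2837 to 3385 in the other 7. Fold changes of the 7 genes are given with these 3 libraries and without them. Other values use all 9 libraries unless stated. In liver RNA as a whole, fewer cells of a type and less RNA per cell cannot be told apart.

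All 7 genes were lower in HFD + PBS livers than in normal diet livers, with no overlap between the 3 values of each group. In HFD + IgG1 livers, Crot and Bbox1 lay above all HFD + PBS values, Cpt2 and Slc25a20 were higher on average with overlap, and Cpt1a, Crat and Slc22a5 lay within the HFD + PBS range. The top of that range was HFD + PBS replicate 6 for every gene, and without it all 7 were higher on average in HFD + IgG1, none past the test (log2 fold change 0.14 for Cpt1a to 1.29 for Crot). Values below are CPM, counts scaled to a common library total with TMM factors.

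Cpt1a (ENSMUSG00000024900, chromosome 19, 3322334 to 3385733, mm10) encodes the liver form of carnitine palmitoyltransferase I, the step at which malonyl-CoA controls entry of long chains. It had 339, 311 and 376 CPM in HFD + IgG1 replicates 5, 6 and 7, 263, 360.3 and 387 CPM in HFD + PBS replicates 3, 4 and 6, and 634, 910 and 554 CPM in normal diet replicates 4, 5 and 6. Both high-fat diet groups lay below every normal diet value, and they overlapped each other. The other CPT1 genes were close to absent. Cpt1b, the muscle form, had 0 to 3 counts per library and did not pass the filter on low counts, and Cpt1c, the brain form, had 2 to 17 counts.

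Slc25a20 (ENSMUSG00000032602, chromosome 9, 108662088 to 108684641) encodes the carnitine-acylcarnitine carrier of the inner membrane. It had 102.3, 75.0 and 117 CPM in HFD + IgG1 replicates 5, 6 and 7, 55.8, 46.2 and 98.3 CPM in HFD + PBS replicates 3, 4 and 6, and 144, 126 and 174 CPM in normal diet replicates 4, 5 and 6. HFD + PBS replicate 6 stood above antibody replicate 6, so those groups overlapped. Cpt2 (ENSMUSG00000028607, chromosome 4, 107903981 to 107923610), the enzyme of the matrix side, had 134.5, 78.7 and 145 CPM in HFD + IgG1, 57.6, 54.5 and 90.5 CPM in HFD + PBS, and 176, 128 and 223 CPM in normal diet. Here antibody replicates 5 and 7 lay inside the normal diet range, while antibody replicate 6 lay inside the HFD + PBS range.

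Crot (ENSMUSG00000003623, chromosome 5, 8966033 to 8997324) encodes the peroxisomal carnitine octanoyltransferase, which lets shortened chains leave peroxisomes as acylcarnitines. It had 766, 735 and 1101 CPM in HFD + IgG1 replicates 5, 6 and 7, 485, 225 and 678 CPM in HFD + PBS replicates 3, 4 and 6, and 1662, 1573 and 1670.4 CPM in normal diet replicates 4, 5 and 6. It was the only one of the 7 genes whose 3 groups were fully separate. Crat (ENSMUSG00000026853, chromosome 2, 30400471 to 30415813), carnitine acetyltransferase of the short chains, had 67.9, 48.2 and 53.3 CPM in HFD + IgG1, 37.2, 33.7 and 69.8 CPM in HFD + PBS, and 159, 100.7 and 105 CPM in normal diet. The HFD + IgG1 values lay inside the span of the HFD + PBS values. Exons of Crat share 59 bases with Dolpp1 on the other strand. Dolpp1 had 141 to 287 counts per library, against at least 589 for Crat. Crat exons also share 411 bases with Gm16323 on the other strand, which had 0 counts. Exons of Crot share 166 bases with Gm37153 on the other strand (0 counts) and 39 with Gm27941 on the same strand (0 to 3 counts). Whether counting used the strand, and how it treated reads in shared bases, is unknown.

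Slc22a5 (ENSMUSG00000018900, chromosome 11, 53864542 to 53891660) encodes the sodium-dependent carnitine transporter of the plasma membrane, also called OCTN2. It had 21.8, 23.1 and 20.8 CPM in HFD + IgG1 replicates 5, 6 and 7, 16.3, 19 and 41.5 CPM in HFD + PBS replicates 3, 4 and 6, and 107.5, 62.6 and 87.6 CPM in normal diet replicates 4, 5 and 6. The antibody livers spanned a few CPM, between HFD + PBS replicate 4 and the much higher HFD + PBS replicate 6. Bbox1 (ENSMUSG00000041660, chromosome 2, 110262697 to 110314560), gamma-butyrobetaine dioxygenase, had 129.7, 86.9 and 109 CPM in HFD + IgG1, 64.8, 68.4 and 83.4 CPM in HFD + PBS, and 116, 139 and 134 CPM in normal diet. Its antibody values lay above HFD + PBS and overlapped normal diet.

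**Figure D1:**
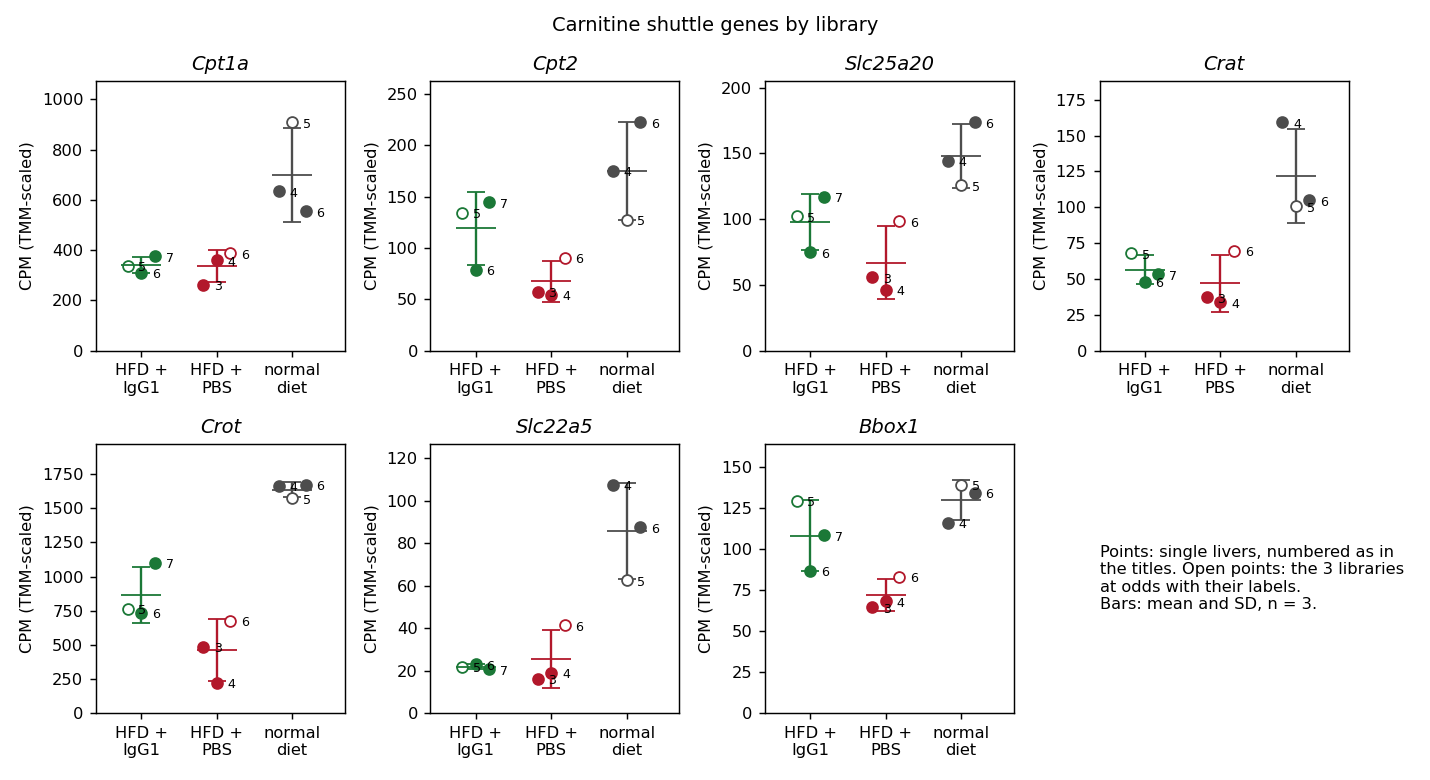
Each panel plots 1 gene in TMM-scaled CPM on a linear axis from 0, with 1 point per liver, numbered by replicate, and bars for mean and SD over 3 livers; open points are the 3 libraries that contradict their labels. In all 7 panels the HFD + PBS livers sit below the normal diet livers, and HFD + PBS replicate 6 is the highest of its group.

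The order of the levels was compared per kilobase of merged exons. Merged exons join all annotated transcripts of a gene, 7642 bases for Cpt1a and 2391 for Cpt2. Which transcripts these livers expressed was not determined, so the order between genes depends on these lengths. Crot led in 8 of 9 libraries, with a mean of 159 ± 37.2 CPM per kb over the HFD + IgG1 livers, 84.8 ± 41.6 over the HFD + PBS livers and 299.7 ± 9.90 over the normal diet livers (SD, n = 3 each). Cpt1a and Cpt2 followed in changing order, at 44.7 ± 4.26 and 49.9 ± 14.9 CPM per kb in HFD + IgG1, and at 44.1 ± 8.55 and 28.2 ± 8.33 in HFD + PBS. In normal diet the same pair stood at 91.5 ± 24.4 and 73.3 ± 19.9. In HFD + PBS replicate 4 Cpt1a stood above Crot. Slc22a5 was last in 5 of 9 libraries, Crat in 3 and Bbox1 in normal diet replicate 4. Crat had 10.5 ± 1.89 CPM per kb in HFD + IgG1, 8.71 ± 3.70 in HFD + PBS and 22.6 ± 6.08 in normal diet. Slc22a5 had 7.13 ± 0.377 CPM per kb in HFD + IgG1, 8.33 ± 4.50 in HFD + PBS and 28.0 ± 7.34 in normal diet. Summed over the 7 genes, the level was 260 to 377 CPM per kb in HFD + IgG1, 149 to 278.5 in HFD + PBS and 557 to 586 in normal diet, with HFD + PBS replicate 6 above antibody replicate 6.

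The same livers were high or low in their group for most of the genes. HFD + PBS replicate 6 had the highest value of its group for 7 of 7 genes, HFD + IgG1 replicate 6 the lowest of its group for 6 of 7, and normal diet replicate 5 the lowest for 5 of 7. The high library of the HFD + PBS group and the low one of the normal diet group are those with Xist and no Y-linked counts. Whether sex has a part in these deviations was not tested.

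The comparison of HFD + PBS with normal diet asked how the liver differed after the high-fat diet. The genes ranged from 28.3% of the normal diet mean for Crot and 29.8% for Slc22a5 to 48.2% for Cpt1a and 55.6% for Bbox1. Between these lay Cpt2 at 38.5%, Crat at 38.6% and Slc25a20 at 45.1%. All 7 log2 fold changes were negative (50.3% of all 14763 genes tested), with a median of -1.37 against -0.0028 over all genes. All 7 had lower values without overlap, against 15.3% of all genes. Without the 3 libraries that contradict their labels the median was -1.80, and Crot and Slc22a5 stood at 21.3% and 18.1% of normal diet.

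No member passed edgeR's quasi-likelihood test after Benjamini-Hochberg adjustment over all genes, and neither did any other gene (0.0% called). At an unadjusted p under 0.05, 7 of 7 were lower and 0 higher (11.4% and 9.41% of all genes). DESeq2 on the same counts called 7 of 7 lower and 0 higher (4.43% and 3.6% of the genes it tested), and limma-voom called 0. The log2 fold changes were -1.82 for Crot (SE 0.36), -1.75 for Slc22a5 (SE 0.34), -1.38 for Cpt2 (SE 0.30) and -1.37 for Crat (SE 0.30). They were -1.15 for Slc25a20 (SE 0.29), -1.05 for Cpt1a (SE 0.23) and -0.85 for Bbox1 (SE 0.18). The edgeR adjusted p was 0.078 for Crot and Slc22a5, 0.101 for Slc25a20 and 0.0786 for the other 4. DESeq2 adjusted p ran from 5.81e-05 for Crot to 0.00714 for Slc25a20. HFD + IgG1 replicate 6 is in neither group but enters the estimate of the spread. With it left out edgeR called 7 of 7 (adjusted p 0.028 to 0.0491), against 2.14% of all genes called lower (325 of 15214). In the fit of only the 6 libraries compared, edgeR called 0 of 7 (adjusted p 0.053 to 0.0842), against 92 of 14437 genes called lower. It also called 0 without HFD + IgG1 replicate 5, without HFD + IgG1 replicate 7, and without the 3 libraries that contradict their labels. With HFD + PBS replicate 6 left out it called Slc22a5 alone (-2.28, adjusted p = 0.0263), against 0.0529% of all genes called lower (8 of 15112).

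Markers of other cells differed in this comparison too. Neutrophil markers summed to 414 to 3321 CPM in HFD + PBS and 35 to 166 CPM in normal diet, with 8 of 8 positive and a median log2 fold change of 4.08. Recruited macrophage markers summed to 817 to 1719 CPM in HFD + PBS and 379 to 502 CPM in normal diet, with 8 of 8 positive, and Kupffer cell markers had 8 of 8 positive with a median of 0.50. Cholangiocyte markers summed to 146 to 263 CPM in HFD + PBS and 54.6 to 77.2 CPM in normal diet, with 6 of 6 positive and a median of 1.05. Spp1 is in both the recruited macrophage and the cholangiocyte list, so these lists share its counts, here and below. Hepatocyte markers summed to 66549 to 133265 CPM in HFD + PBS and 99726 to 106789 CPM in normal diet, with 4 of 10 positive and a median of -0.05. T and NK cell markers had 7 of 8 positive and a median of 0.75. B and plasma cell, endothelial and stellate cell markers each had 3 of 6 positive, with medians of -0.08, 0.08 and 0.03. The part of cell composition in the lower shuttle genes was not tested.

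HFD + IgG1 was set against HFD + PBS to see what differed with antibody on the same diet. Crot, Cpt2, Bbox1 and Slc25a20 were higher on average and Cpt1a was level, at 342 ± 32.5 CPM in HFD + IgG1 and 337 ± 65.4 CPM in HFD + PBS (mean ± SD, n = 3 each). Of the 7 genes, 6 had a positive log2 fold change (52.8% of all genes), with a median of 0.56 against 0.037 over all genes. Values without overlap were found for 2, Crot and Bbox1, both higher (15.3% of all genes). With the 3 libraries that contradict their labels left out, the median was 0.51. With HFD + PBS replicate 4 left out it was 0.30, with Crot at 0.53, Slc25a20 at 0.30 and Crat at 0.03.

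None of the 7 passed edgeR's adjusted test (0.0% of all genes), and neither DESeq2 (3.98% of the genes it tested higher, 4.95% lower) nor limma-voom called any. At an unadjusted p under 0.05, 3 were higher and 0 lower, against 12.6% and 11.6% of all genes. These were Crot, with a log2 difference of 0.91 (SE 0.35, adjusted p = 0.169 in edgeR), Cpt2 at 0.82 (SE 0.30, adjusted p = 0.154) and Bbox1 at 0.59 (SE 0.18, adjusted p = 0.14). Slc25a20 stood at 0.56 (SE 0.28), Crat at 0.27 (SE 0.30), Cpt1a at 0.02 (SE 0.23) and Slc22a5 at -0.22 (SE 0.34). The sign for Cpt1a flipped under RLE and upper-quartile scaling (-0.02 and -0.06). Slc22a5 turned positive without HFD + PBS replicate 6 (0.31, SE 0.23) and without the 3 libraries that contradict their labels (0.27, SE 0.21). Without HFD + IgG1 replicate 6, edgeR called Cpt2 (1.05, adjusted p = 0.0314) and Bbox1 (0.73, adjusted p = 0.0237), 2 of 7 against 7.12% of all genes called higher (1083 of 15214). That library also differed in marker RNA: neutrophil markers summed to 522 CPM there and to 13.3 and 19.9 CPM in antibody replicates 5 and 7, against 414 to 3321 CPM in HFD + PBS. Neutrophil markers had 0 of 8 positive in this comparison and a median of -3.02, recruited macrophage markers 0 of 8 and a median of -1.49, Kupffer cell markers 0 of 8 and a median of -0.90, and stellate cell markers 0 of 6 and a median of -0.57. T and NK cell markers had 1 of 8 positive and a median of -1.1. B and plasma cell markers had 2 of 6 positive (-0.68) and endothelial markers 1 of 6 (-0.31). Cholangiocyte markers had 1 of 6 positive and a median of -1.18, and hepatocyte markers 6 of 10 positive and a median of 0.32. Their part in the result was not tested.

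The comparison of HFD + IgG1 with normal diet shares libraries with both others, so its values are not independent of theirs. Slc22a5 stood at 25.5% of the normal diet mean, Crat at 46.4%, Cpt1a at 48.9% and Crot at 53.0%. Slc25a20 reached 66.3%, Cpt2 68.1% and Bbox1 83.4%. All 7 log2 fold changes were negative (49.6% of all genes), with a median of -0.92 against 0.0033 over all genes. Lower values without overlap were found for 5 of 7 (6.41% of all genes), all but Cpt2 and Bbox1. With the same 3 libraries left out, the median was -0.85.

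No member passed edgeR's adjusted test (0.0% of all genes), 4 were lower and 0 higher at an unadjusted p under 0.05 (3.21% and 3.83% of all genes), and limma-voom called 0. DESeq2 called Slc22a5 (-1.98, adjusted p = 2.7e-05) and Cpt1a (-1.04, adjusted p = 0.00284), and none higher, against 0.367% and 0.432% of the genes it tested. In edgeR, Slc22a5 was at -1.97 (SE 0.35, adjusted p = 0.339), Crat at -1.11 (SE 0.30), Cpt1a at -1.03 (SE 0.23, adjusted p = 0.426) and Crot at -0.92 (SE 0.35). Slc25a20, Cpt2 and Bbox1 were at -0.59 (SE 0.28), -0.56 (SE 0.30) and -0.26 (SE 0.18). Slc22a5 passed edgeR's test with HFD + PBS replicate 6 left out (adjusted p = 0.0243), against 0.00662% of all genes called lower (1 of 15112), and in the fit of the 6 libraries compared (adjusted p = 0.0396), against 0.00715% (1 of 13991). Neutrophil markers summed to 13.3 to 522 CPM in HFD + IgG1 and 35 to 166 CPM in normal diet, with 6 of 8 positive. Antibody replicate 6, at 522 CPM, lay above the normal diet range, and replicates 5 and 7, at 13.3 and 19.9 CPM, below it. Kupffer cell markers had 0 of 8 positive (median -0.44), recruited macrophage markers 3 of 8 (-0.52) and stellate cell markers 0 of 6 (-0.40). Endothelial markers had 0 of 6 positive (-0.31), B and plasma cell markers 0 of 6 (-0.64), and T and NK cell markers 2 of 8 (-0.52). Cholangiocyte markers had 3 of 6 positive (0.05). Hepatocyte markers summed to 114594 to 176790 CPM in HFD + IgG1 and 99726 to 106789 CPM in normal diet, with 9 of 10 positive and a median of 0.37. Their part in the result was not tested.

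**Figure D2:**
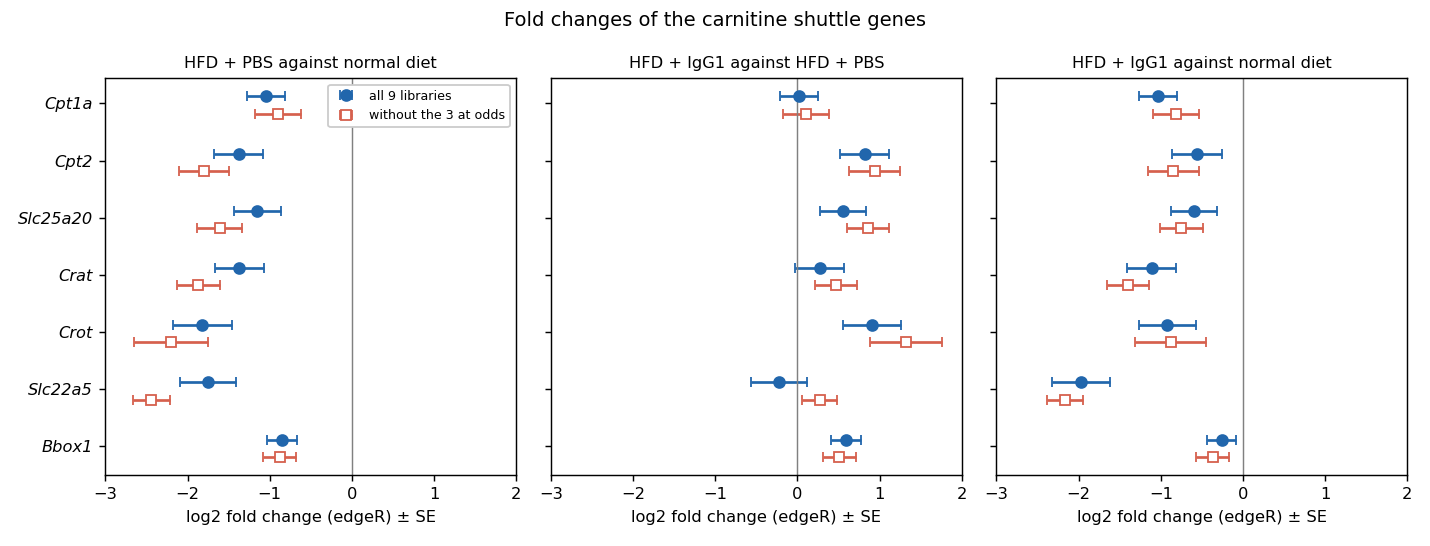
Points are edgeR log2 fold changes with SE bars for each of the 7 genes, 1 panel per comparison; filled circles use all 9 libraries and open squares leave out the 3 that contradict their labels. Against normal diet every point is negative, from -0.85 to -1.82 for HFD + PBS and from -0.26 to -1.97 for HFD + IgG1 with all libraries, while HFD + IgG1 against HFD + PBS runs from -0.22 to 0.91.

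Genes around the shuttle were counted in 9 further lists. Every edgeR adjusted p in them missed the threshold of 0.05, so the counts below are of genes at an unadjusted p under 0.05, against the shares of all genes given above. Carnitine synthesis and transport outside the 7 genes had a median near 0 after the diet. Of 8 genes, 0 were higher and 1 lower in HFD + PBS, with a median log2 fold change of -0.04. That gene was Aldh9a1, the aldehyde dehydrogenase of carnitine synthesis, at 184.5 ± 7.30 CPM in HFD + PBS and 272 ± 10.3 CPM in normal diet (-0.56, SE 0.18). Slc25a29, a basic amino acid carrier of the inner membrane, was next at 0.77 (SE 0.40). After IgG1, set against HFD + PBS, 4 were higher and 1 lower, with Aldh9a1 at 0.62 (SE 0.18) and the serine hydroxymethyltransferase Shmt2 at 0.45 (SE 0.17). Against normal diet the antibody group had 0 of 8, with Shmt1 at 0.33 (SE 0.21) and Shmt2 at 0.24 (SE 0.17).

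Acyl-CoA synthetases, which activate fatty acids before the shuttle, had 1 of 13 tested genes higher and 6 lower in HFD + PBS against normal diet. Slc27a2, the very-long-chain synthetase, had 627 ± 171 CPM in HFD + PBS and 1672 ± 170.4 CPM in normal diet (-1.41, SE 0.24), and Slc27a1 was at -0.89 (SE 0.17). Between HFD + IgG1 and HFD + PBS, 7 were higher and 0 lower, among them the medium-chain synthetases Acsm5 at 1.12 (SE 0.19) and Acsm1 at 0.70 (SE 0.19). Against normal diet, 3 were higher and 2 lower in HFD + IgG1, with the acetyl-CoA synthetase Acss2 at 1.14 (SE 0.31) and Slc27a1 at -0.92 (SE 0.17).

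Genes that set malonyl-CoA, the inhibitor of CPT1, and the kinase AMPK had medians near 0 in the 3 comparisons, at -0.01, 0.01 and 0.00. Without the 3 libraries that contradict their labels these medians were 0.04, -0.04 and -0.21. In HFD + PBS against normal diet 1 of 10 was higher and 3 were lower, with the AMPK subunit Prkaa2 at -0.70 (SE 0.20) and its activating kinase Stk11 at -0.44 (SE 0.14). Between HFD + IgG1 and HFD + PBS, 1 was higher and 0 lower. Prkaa2 was at 0.71 (SE 0.20) and Mlycd, which breaks malonyl-CoA down, at 0.34 (SE 0.16). Against normal diet 1 was higher and 0 lower in HFD + IgG1: Acaca, an acetyl-CoA carboxylase that makes malonyl-CoA, at 112 ± 31.8 CPM against 59.8 ± 10.4 CPM (0.90, SE 0.26). Prkaa1 followed at -0.31 (SE 0.19).

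Downstream of the shuttle, mitochondrial beta-oxidation had 15 of 17 genes lower and 0 higher in HFD + PBS, with a median of -0.86. DESeq2 called 11 of the 17 lower. Hadha and Hadhb, the subunits of the trifunctional protein, were at -1.16 (SE 0.21) and -1.04 (SE 0.20). Set against HFD + PBS, the HFD + IgG1 livers had 11 of 17 higher and 0 lower, with a median of 0.56 that equals that of the shuttle genes. Hadh, the short-chain dehydrogenase, was at 0.81 (SE 0.20) and Acads at 0.72 (SE 0.22). Against normal diet 6 were lower and 0 higher in HFD + IgG1, with the isomerase Eci2 at -0.81 (SE 0.23) and Hadhb at -0.62 (SE 0.20).

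Peroxisomal beta-oxidation, which feeds Crot and Crat, had 10 of 14 genes lower and 0 higher in HFD + PBS, with a median of -1.06, and DESeq2 called 9 of the 14 lower. Hsd17b4, the bifunctional enzyme of branched chains, was at -1.11 (SE 0.22) and the acyl-CoA transporter Abcd3 at -1.31 (SE 0.29). After IgG1, set against HFD + PBS, 4 were higher and 0 lower, among them the thiolase and sterol carrier gene Scp2 at 1.32 (SE 0.37). Against normal diet 6 were lower and 0 higher. Ehhadh, a bifunctional enzyme of straight chains, had 214 ± 37.3 CPM in HFD + IgG1 and 1425 ± 649 CPM in normal diet (-2.74, SE 0.68), and the thiolase Acaa1a was at -0.51 (SE 0.16). Ketone body and acyl-CoA disposal genes had 7 of 9 lower in HFD + PBS, among them the mitochondrial thioesterase Acot2 at -2.37 (SE 0.52). Between HFD + IgG1 and HFD + PBS, 0 of 9 were past this p in either direction, with the ketone body dehydrogenase Bdh1 at 0.89 (SE 0.40). Against normal diet 4 were lower, with Acot2 at -2.93 (SE 0.54) and Acot8 at -0.78 (SE 0.24).

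Among 15 regulators of fatty acid oxidation, 7 were lower and 1 higher in HFD + PBS. Ppara, the receptor that drives many of these genes, had 36.9 ± 6.37 CPM in HFD + PBS and 116 ± 29.9 CPM in normal diet (-1.65, SE 0.32), and Creb3l3, a liver transcription factor of fasting, was at -1.25 (SE 0.25). In HFD + IgG1 against HFD + PBS 5 were higher and 0 lower, with Ppara at 95.3 ± 39.4 CPM against 36.9 ± 6.37 CPM (1.37, SE 0.31) and Cebpa at 1.06 (SE 0.30). Against normal diet 1 was higher and 1 lower in HFD + IgG1, Ppard at 0.87 (SE 0.26) and Creb3l3 at -0.73 (SE 0.25). Other PPAR-alpha targets had 10 of 14 lower and 0 higher in HFD + PBS, with a median of -1.84, Retsat at -3.26 (SE 0.50) and Mgll at -1.83 (SE 0.34). In HFD + IgG1 against HFD + PBS 3 were higher and 1 lower, with Mgll at 1.15 (SE 0.33) and Ucp2, a mitochondrial carrier, at -1.34 (SE 0.42). Against normal diet 8 were lower and 0 higher, with a median of -1.44, Angptl4 at -1.88 (SE 0.46) and Retsat at -1.82 (SE 0.47). Acot2 and Acaa1a have near-identical neighbours, so counting may have split their reads, and their values are uncertain. These lists share the libraries and the marker differences given above. Some list medians moved when the 3 libraries that contradict their labels were left out. In HFD + PBS against normal diet, mitochondrial beta-oxidation was then at -1.18, peroxisomal beta-oxidation at -1.25 and other PPAR-alpha targets at -2.26. In HFD + IgG1 against HFD + PBS, mitochondrial beta-oxidation stayed at 0.56. The acyl-CoA synthetases went from 0.53 to 0.28 in that comparison.

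The 7 genes differed in how closely they followed their own mean profile. Likeness was measured as the root-mean-square distance over 9 libraries between log2 CPM values centred on each gene's mean, where a small value means a similar profile. Slc25a20 was nearest to the mean of the 7 genes, at 0.172, followed by Crat at 0.191 and Cpt2 at 0.257. Each of the 7 genes is part of that mean, which lowers its own distance. Their distances are therefore no like measure for genes outside the list. Slc22a5 was farthest at 0.473, and Bbox1, Cpt1a and Crot lay between at 0.336, 0.345 and 0.379. The closest pair was Cpt2 and Slc25a20, the consecutive steps of the inner membrane, at 0.167, and the most distant pair was Slc22a5 and Bbox1 at 0.773. Among 13216 genes outside the list with at least 1 CPM on average, whose median distance was 0.679, those near the mean profile included Creb3l3 (0.0961), Slc27a2 (0.127), Vwa8 (0.166) and Abcd3 (0.179). Creb3l3 had 235 ± 28.0 CPM in HFD + IgG1, 164 ± 64.8 CPM in HFD + PBS and 390.0 ± 24.0 CPM in normal diet (mean ± SD, n = 3 each). Of the 13216 genes, 4 lay nearer to the mean profile than Slc25a20, 9 nearer than Crat and 37 nearer than Cpt2. For Bbox1, Cpt1a, Crot and Slc22a5 the genes lying nearer numbered 96, 111, 184 and 820. Because each member is part of the mean, these counts come out low and do not rank members against other genes. Distances describe these 9 libraries, which share the group differences given above.

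**Figure D3:**
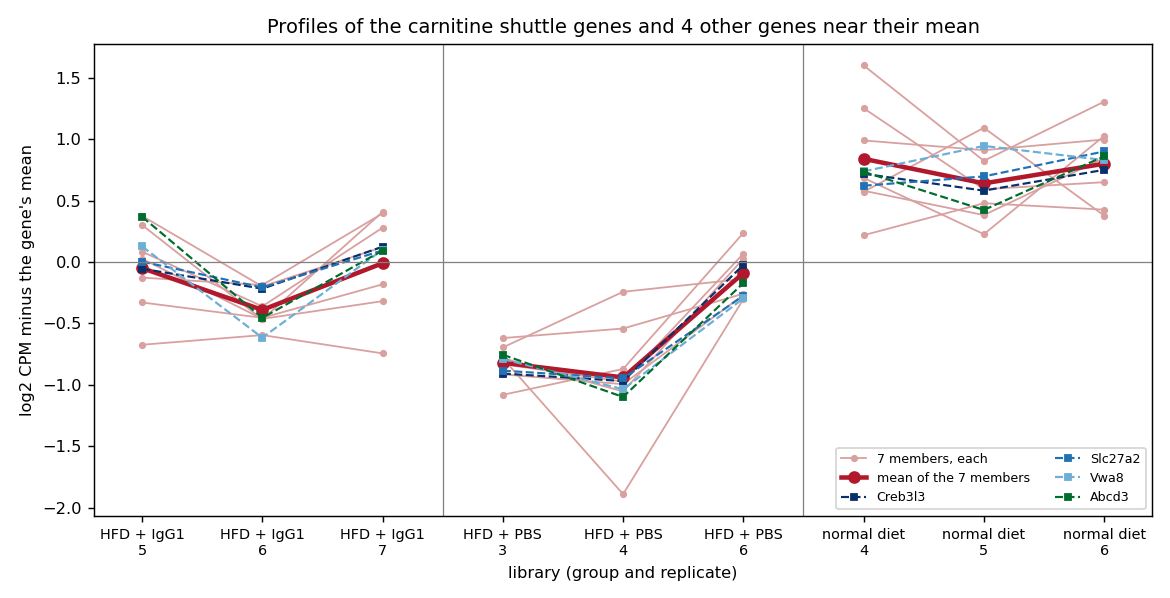
Log2 CPM minus the gene's own mean is plotted for 9 libraries, grouped by treatment, for each of the 7 genes (pale red), their mean (dark red) and 4 other genes near it, Creb3l3, Slc27a2, Vwa8 and Abcd3 (dashed); lines only join points of 1 group. The mean runs from -0.39 to -0.01 in HFD + IgG1, from -0.94 to -0.09 in HFD + PBS and from 0.64 to 0.84 in normal diet, and the 4 other genes lie close to it.

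All 7 genes being lower in HFD + PBS, their promoters were searched for known elements. RefSeq promoters (GRCm38.p6) were matched for 6 of the 7 genes, all but Crat. The 250 bases before each start were searched on both strands. The direct repeat bound by PPAR-alpha with its partner RXR, AGGTCANAGGTCA, was found in 0 of 6 windows and in 0.0335% of all 32851 promoters. Only exact copies were searched, and these are so rare that 0 of 6 cannot show whether the genes lack such an element. The single repeat AGGTCA was found in 1, Cpt1a, and in 14.0% of all promoters. The promoters with the direct repeat are part of that share. The GC box GGGCGG was found in 5, all but Bbox1, against 32.7% of all promoters. CCAAT was found in Cpt1a and Crot, against 33.8%, and TATAAA in Bbox1 at position -209 from its start, against 12.4%. All 250 bases of the Crot window lay in annotated exons. The windows of Cpt1a and Bbox1 lay inside the annotated genes, past their 5′ ends at 3322334 and 110314560. The bases of the window outside annotated exons are shown, 5′ to 3′ on the gene's strand, for the closest pair in profile, Cpt2 and Slc25a20, for Slc22a5, the farthest from the mean, and for Cpt1a, with searched elements in capitals.
Cpt2, chr4:107923611-107923839, minus strand: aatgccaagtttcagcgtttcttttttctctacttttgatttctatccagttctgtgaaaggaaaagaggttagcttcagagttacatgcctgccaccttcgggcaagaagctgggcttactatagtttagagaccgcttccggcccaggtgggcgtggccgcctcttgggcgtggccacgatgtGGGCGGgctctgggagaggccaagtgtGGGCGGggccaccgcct
Slc25a20, chr9:108661886-108662087, plus strand: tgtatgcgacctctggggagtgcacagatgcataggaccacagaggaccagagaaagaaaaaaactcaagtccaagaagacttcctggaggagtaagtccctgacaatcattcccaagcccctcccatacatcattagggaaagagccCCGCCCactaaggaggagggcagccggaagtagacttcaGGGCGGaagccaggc
Slc22a5, chr11:53891704-53891953, minus strand: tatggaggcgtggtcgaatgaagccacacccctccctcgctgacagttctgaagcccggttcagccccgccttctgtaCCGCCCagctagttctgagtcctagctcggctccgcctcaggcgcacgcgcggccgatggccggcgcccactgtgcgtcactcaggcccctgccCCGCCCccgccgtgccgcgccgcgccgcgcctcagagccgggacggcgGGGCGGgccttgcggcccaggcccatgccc
Cpt1a, chr19:3323051-3323284, plus strand: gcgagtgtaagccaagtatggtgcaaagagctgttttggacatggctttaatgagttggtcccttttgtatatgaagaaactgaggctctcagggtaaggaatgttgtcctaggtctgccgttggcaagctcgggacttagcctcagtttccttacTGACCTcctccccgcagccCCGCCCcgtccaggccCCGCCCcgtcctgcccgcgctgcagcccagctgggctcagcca
The capitals in Cpt2, Slc25a20 and Slc22a5 are GC boxes on either strand, and the first in Cpt1a is the single repeat on the opposite strand, followed by GC boxes. The CCAAT of Cpt1a runs over the end of the printed bases and is in lower case, and a GC box of Slc25a20 lies in the bases left off as exon of some annotated transcript. G and C made up 73.6% of the window of Slc22a5, 69.6% of that of Crot and 59.6% of that of Cpt1a. They made up 56.8% of those of Cpt2 and Slc25a20 and 39.6% of that of Bbox1, against a median of 52.4% over all promoters. A match is no evidence of binding, and elements outside these windows were not searched.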

How the data were processed

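Whole-number counts per Ensembl gene, 1 column per liver, were deposited by the authors without normalisation. Per the labels' protocols, each library was made with a NEBNext Ultra kit from 1 µg of a liver's Trizol RNA. The submitters' processing notes name mm10 and Bowtie 0.12.2. Not given in the sources used here are the counting program, annotation and strand setting. Symbols, coordinates and exon lengths came from GENCODE M21 (GRCm38, also called mm10), which named 54495 of 54532 IDs.

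Counts were analysed in R 4.3.3 with edgeR 4.0.16: TMM factors, filterByExpr (minimum count 10, minimum total 15), a group-means model of all 9 libraries, and two-sided quasi-likelihood tests (glmQLFTest after a robust glmQLFit). P-values were adjusted by Benjamini-Hochberg over 14763 genes, with a threshold of 0.05. The common dispersion was 0.101. Printed fold changes are edgeR's shrunken ones, and the SE is the unshrunk fold change over the square root of F. Alternatives used DESeq2 1.42.0 and limma 3.58.1 (voom), other scalings and filters, fewer libraries and a replicate block. Profiles used log2(CPM + 0.5). With 3 against 3 livers an exact test cannot go below p = 0.1, so none was made. Nothing says how animals were housed, and the livers were selected. The p-values of edgeR set a difference against the spread between livers, estimated over all 3 groups and moderated over genes. They cover these livers only. Replicate numbers do not mark shared animals. No 2 libraries of a group agreed within counting noise (chi-square per degree of freedom at least 59.9).

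The members and lists were chosen with earlier results of these data known, so no list was given a p. The rule for named genes takes the 7 members, the 2 genes of each further list with the smallest p in each comparison, the 5 nearest profiles and Apoe. A few of these genes are not reported here. Promoter sequences are from RefSeq. Protein sequences were not used here.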

Additional observations from a re-analysis of the deposited data

How the results depend on the processing

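Over 19 alternatives, every log2 fold change of the 7 genes against normal diet kept its sign, and in HFD + IgG1 against HFD + PBS only Cpt1a and Slc22a5 changed sign. The edgeR count of members called was 0 in each comparison. In HFD + PBS against normal diet it was 7 with DESeq2, against 4.43% of the genes tested called lower. With no filter on low counts it was 5, against 198 of 26478 genes called lower. In HFD + IgG1 against normal diet it was 2 with DESeq2 and 1 with only the 6 libraries compared, against 0.367% and 0.00715% called lower. With each library left out in turn it ran from 0 to 7 in HFD + PBS against normal diet. In HFD + IgG1 it ran from 0 to 2 against HFD + PBS and from 0 to 1 against normal diet. The median log2 fold change of -1.37 ran from -1.64 to -1.13 with libraries left out and was -1.80 when the 3 libraries that contradict their labels were dropped. That of 0.56 ran from 0.30 to 0.72, and that of -0.92 from -1.08 to -0.79. With the replicate number as a replicate block the medians were -1.24, 0.19 and -1.08, and 0 members were called. Deviations of same-numbered livers from their group means had correlations of -0.494 to 0.00692. This gave no sign that the number pairs livers, but with means of 3 livers the check is a weak one. Cpt1a in HFD + IgG1 against HFD + PBS, at 0.02, was -0.02 with DESeq2, RLE factors, no filter and a filter of 1 CPM in 3 libraries, -0.06 with upper-quartile factors, -0.03 with only the 6 libraries compared and -0.41 under the block. It ran from -0.15 to 0.14 with libraries left out, negative without HFD + IgG1 replicates 5 and 7 (-0.01 and -0.08) and HFD + PBS replicate 3. Slc22a5, at -0.22, was 0.27 without the 3 libraries and ran from -0.49 to 0.31 with libraries left out, positive without HFD + PBS replicate 6. Over all genes edgeR called 0 in each comparison. In HFD + PBS against normal diet, HFD + IgG1 against HFD + PBS and HFD + IgG1 against normal diet, DESeq2 called 1184, 1265 and 111, and no filter gave 274, 57 and 6. Only the 6 libraries compared gave 184, 0 and 3, leaving out the 3 libraries gave 2, 0 and 0, and leaving out HFD + IgG1 replicate 6 gave 576, 2356 and 6. The cause of these changes was not tested. Members had 306 to 28258 counts per library, so the spread between livers, not counting, limits precision.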
